A study of Homo sapiens with 6 samples.

Results

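The peptidylarginine deiminase genes PADI1, PADI2, PADI3 and PADI4 were followed in MOLM-13 cells after 20 h with DB2115 or vehicle. These 4 genes were found by symbol among the 58381 gene identifiers of the deposited count table, and the family was selected on the DB2115 and vehicle CPM values themselves, in which PADI4 was already known to stand out. The treated group received 5 µM DB2115, a compound that the labels give only by this code name, and the vehicle group received 0.001% DMSO. MOLM-13 is an established human acute myeloid leukaemia line with the fusion gene MLL-AF9 and a FLT3 internal tandem duplication. Both groups grew in RPMI medium with 10% serum and antibiotics, and nothing in the labels says that the libraries came from separate cultures. The series title concerns PU.1, the ETS-family transcription factor of myeloid cells. Each group has 2 libraries here, called A and B, because the third column of each group was close to the sum of A and B.

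Peptidylarginine deiminases are calcium-dependent enzymes that convert arginine residues within proteins to citrulline, which removes a positive charge. PADI4 carries a nuclear localisation signal, citrullinates histones and is known in neutrophils for the loosening of chromatin that precedes extracellular traps. PADI2 is the broadly expressed member, found in brain, muscle and macrophages, and acts on myelin basic protein and vimentin. PADI1 and PADI3 are known from epidermis and hair follicle, where filaggrin, keratins, trichohyalin and S100A3 are substrates. The fifth family gene, PADI6, is known from oocytes and early embryos and was not among the 4 genes chosen. All 5 lie side by side on chromosome 1 (GRCh38), from 17066761 to 17401699, with PADI2 on the minus strand and the others on the plus strand.

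The promoters of PADI4 and PADI2 are shown because these are the members with the most reads, and their sequences upstream of the start site are of different kinds. Each stretch is the 250 bases before the RefSeq start site, 5′ to 3′ on the gene's own strand (GRCh38.p14). Capitals mark GGAA, the core of ETS-family sites, TATAAA, and the GC box GGGCGG, each on either strand. The PADI4 stretch is chr1:17307947-17308196 on the plus strand, and the PADI2 stretch is chr1:17119452-17119701 on the minus strand.
PADI4: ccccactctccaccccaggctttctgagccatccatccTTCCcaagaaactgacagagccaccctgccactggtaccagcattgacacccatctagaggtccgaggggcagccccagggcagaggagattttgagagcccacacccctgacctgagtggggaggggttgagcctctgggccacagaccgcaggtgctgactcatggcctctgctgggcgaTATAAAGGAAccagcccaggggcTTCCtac
PADI2: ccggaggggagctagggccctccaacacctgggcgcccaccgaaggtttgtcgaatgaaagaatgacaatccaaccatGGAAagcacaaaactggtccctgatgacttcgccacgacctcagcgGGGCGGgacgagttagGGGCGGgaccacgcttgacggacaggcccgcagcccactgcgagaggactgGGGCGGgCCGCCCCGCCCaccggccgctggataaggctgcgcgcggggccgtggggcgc

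The PADI4 promoter held 1 TATAAA, which began 30 bases before the start site and ran directly into a GGAA. Of 35116 RefSeq promoters of 300 bases (250 before and 50 after the start site), 11.53% held TATAAA. The PADI2 promoter had no TATAAA and held GGGCGG 6 times, 1 of them after the start site, a motif found in 44.95% of promoters. GGAA occurred 3 times in the PADI4 window, 2 times in that of PADI1 and 1 time in that of PADI2, but 95.45% of all promoters held it, with a median of 3 matches. The longer PU.1-type letters GAGGAA, which include GGAA, occurred in 0 of the 4 family promoters searched (those of PADI1, PADI2, PADI4 and PADI6), against 27.85% of all promoters. CACGTG and AAAAA were also found in 0 of these 4 windows, against 7.256% and 39.24% of all promoters. CCAAT was found only in that of PADI6, on the opposite strand, against 34.61% of all. The PADI2 window was also richer in G and C, at 69%, than the PADI4 window, at 61.67%, with a median of 58.67% over all promoters. These letters describe the sequence and do not show binding.

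PADI4 was the member that differed most. It had 5102 and 4791 counts in DB2115 libraries A and B, against 18 and 17 counts in vehicle libraries A and B. Scaled to library size, as CPM after TMM, this is 125 and 116 CPM with DB2115, against 0.512 and 0.412 CPM with vehicle. The groups were far apart, and the 2 libraries of each group lay close together. The means were 120 ± 6.33 CPM with DB2115 and 0.462 ± 0.071 CPM with vehicle (SD, n = 2 each). The ratio of summed counts was 262, with an exact 95% counting interval of 189 to 377. The fitted log2 fold change was 8.03, and its standard error of 0.12 lay below the 0.24 that counting alone gives, so the counting interval is the safer measure. No test is given for these genes, because they were chosen with this contrast in view. As a background, 64.1% of the 17219 genes tested differed at an edgeR adjusted p under 0.05, and 32.7% were higher with DB2115. In bulk RNA, more cells with the transcript and more transcript per cell cannot be told apart.

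**Figure D1:**
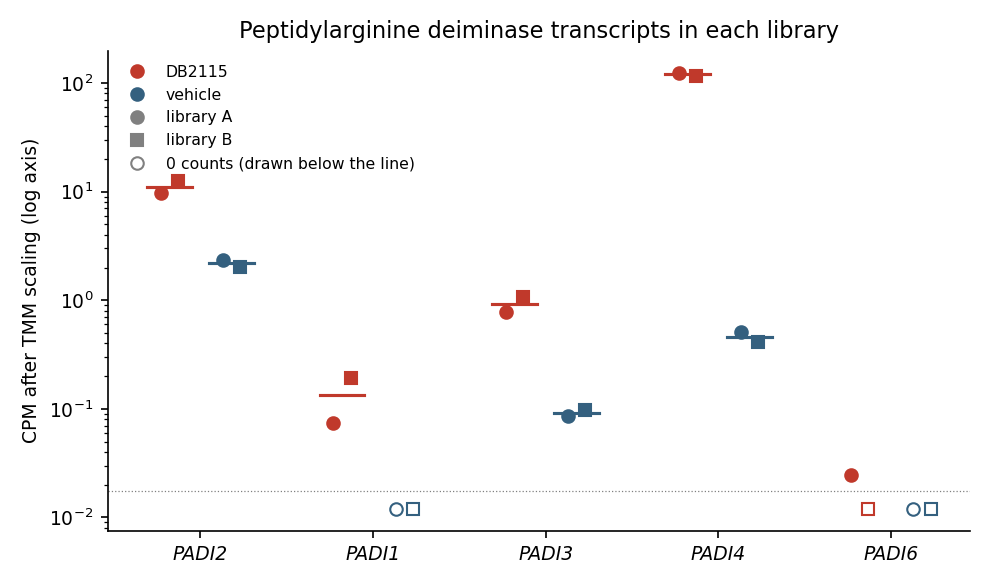
CPM after TMM scaling (log axis) of each deiminase gene, in chromosomal order, with DB2115 in red and vehicle in blue. Circles are library A, squares are library B, bars are group means where both libraries had counts, and open symbols below the dotted line are libraries with 0 counts. PADI4 lies at 116 to 125 CPM with DB2115, against 0.412 to 0.512 CPM with vehicle.

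Among all tested genes PADI4 had the log2 fold change of rank 87 of 17219. It stood above 90.56% of tested genes by mean CPM with DB2115, against 16.62% with vehicle. PADI2 stood above 47.78% with DB2115, against 33.15% with vehicle. PADI3 stayed low by the same measure, above 19.84% with DB2115, against 3.804% with vehicle. These percentiles are not corrected for gene length.

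**Figure D2:**
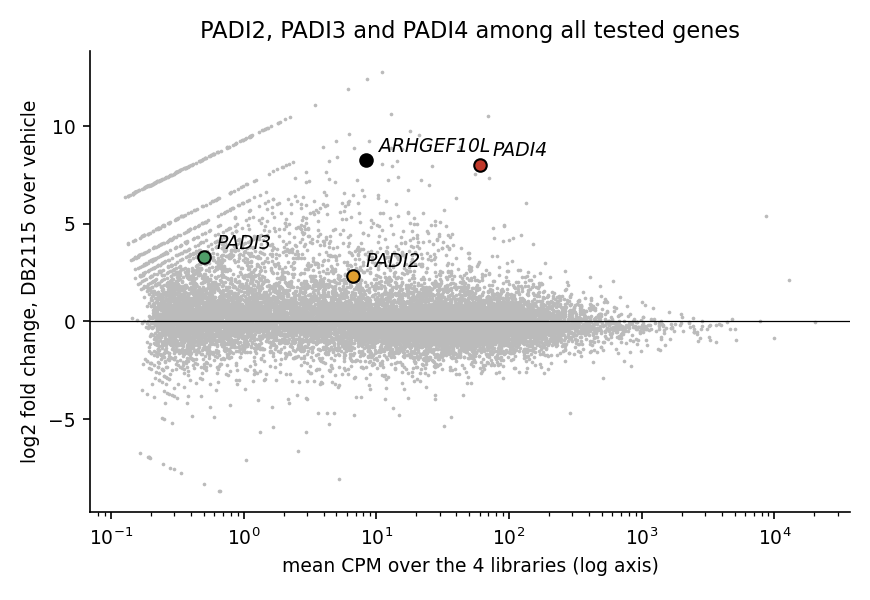
Log2 fold change, DB2115 over vehicle, against mean CPM over the 4 libraries (log axis) for every tested gene (grey points). PADI2, PADI3, PADI4 and the neighbouring gene ARHGEF10L are marked. PADI4, at a log2 fold change of 8.03, lies near the upper edge for its level, while PADI2, at 2.34, and PADI3, at 3.29, lie lower.

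PADI2 was the second most counted member. It had 398 and 518 counts with DB2115, against 83 and 84 with vehicle, which is 9.73 and 12.5 CPM with DB2115, against 2.36 and 2.03 CPM with vehicle. The groups did not overlap, although the DB2115 libraries differed more from each other than those of vehicle. Its log2 fold change was 2.34 (SE 0.17), and the ratio of summed counts was 5.09 (95% counting interval 4.31 to 6.04).

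The epidermal members were rare in both groups. PADI3 had 32 and 44 counts with DB2115, against 3 and 4 with vehicle. That is 0.782 and 1.06 CPM with DB2115, against 0.085 and 0.097 CPM with vehicle, with no overlap between the groups. Its log2 fold change was 3.29 (SE 0.54, below the 0.57 that counting alone gives). The ratio of counts was 10.1, with a wide counting interval of 4.66 to 25.9. PADI3 passed the filter on low counts only through its DB2115 libraries. PADI1 had 3 and 8 counts with DB2115 and 0 counts in both vehicle libraries, and it did not pass the filter. Set against a floor of 3 counts over the vehicle group, PADI1 was at least 3.40-fold higher with DB2115, a value that leaves out the counting error of its 11 DB2115 counts. With that error included, the lower limit of the exact 95% counting interval of the ratio was 2.33. PADI6 had 1 and 0 counts with DB2115 and 0 counts in both vehicle libraries, too few to compare. Of the 4 members, then, all had more counts in both DB2115 libraries than in either vehicle library, and 3 could be fitted. Among all tested genes, 42% had both DB2115 libraries above both vehicle libraries.

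The make-up of the family differed between the groups. Levels of different genes were compared as CPM per kilobase of annotated exon. With DB2115 the order was PADI4 at 40.5 ± 2.13, PADI2 at 1.86 ± 0.33, PADI3 at 0.289 ± 0.062 and PADI1 at 0.027 ± 0.017 CPM per kb (SD, n = 2). With vehicle it was PADI2 at 0.367 ± 0.039, PADI4 at 0.156 ± 0.024 and PADI3 at 0.029 ± 0.0025 CPM per kb, with PADI1 at 0 counts. Each neighbouring pair in these orders differed by more than the spread of either member's libraries. PADI4 per kb was 25.8 and 18.6 times PADI2 in DB2115 libraries A and B, while in vehicle libraries A and B it was 0.437 and 0.408 times PADI2. PADI4 thus made up 94.9% ± 1.15 of the family's CPM per kb with DB2115, against 28.1% ± 1.27 with vehicle, and PADI2 made up 4.38% ± 0.95 with DB2115, against 66.6% ± 0.24 with vehicle. The whole family summed to 43.9 and 41.4 CPM per kb with DB2115, against 0.594 and 0.509 with vehicle. Gene-level counts do not separate the annotated transcripts of PADI4, so no value is given per isoform.

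**Figure D3:**
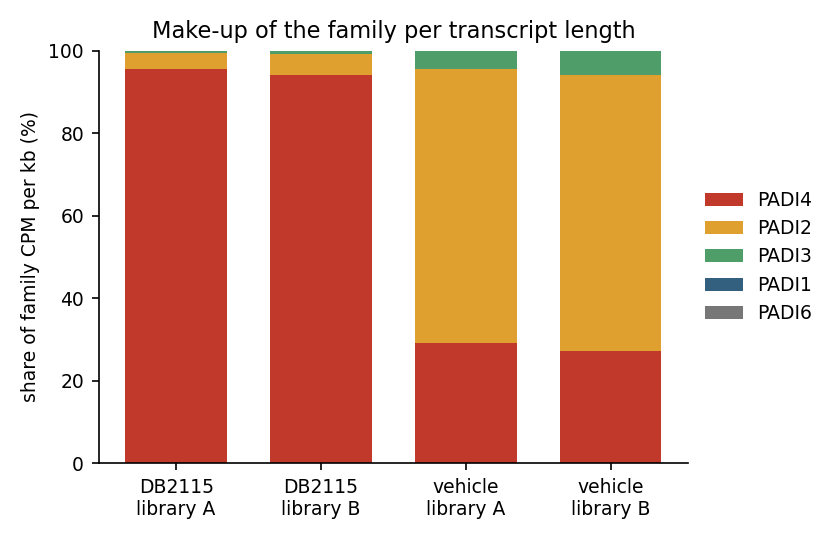
Share of each deiminase gene in the family's summed CPM per kilobase of exon (%), 1 bar per library. PADI4 takes 94.1% to 95.7% in the DB2115 libraries, against 27.2% to 29.03% in the vehicle libraries, where PADI2 takes 66.5% to 66.8%.

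The genes that flank the cluster moved in both directions. ARHGEF10L, a guanine nucleotide exchange factor whose start lies 232 kb beyond that of PADI4, had 655 and 726 counts with DB2115, against 1 and 3 with vehicle. Its ratio was 321, with a 95% counting interval of 125 to 1178. ARHGEF10L passed the filter on low counts only through its DB2115 libraries, so it could only rise. Its edgeR adjusted p of 4.84e-11 is therefore no separate support. Its log2 fold change of 8.24 was 7.78 without vehicle library A and 9.03 without vehicle library B. Between PADI4 and ARHGEF10L lie PADI6, at 1 count in all, and RCC2, a regulator of mitosis, which fell (log2 fold change -0.53, edgeR adjusted p = 7.48e-06). RCC2 stood at 302 ± 18 CPM with DB2115 and 436 ± 5.86 CPM with vehicle. On the other side, SDHB, a subunit of respiratory complex II, fell (-0.56, adjusted p = 3.7e-06), whereas ATP13A2, a lysosomal polyamine transporter, rose (1.51, adjusted p = 3.67e-10), as did CROCC, which encodes the centriole protein rootletin (0.91, adjusted p = 0.000277, all edgeR). MFAP2, with 2 and 3 counts with DB2115 and 0 counts with vehicle, and ACTL8, with 1 and 2 counts with DB2115 and 8 and 7 with vehicle, were too low to test. Of the 7 flanking genes listed, 5 were tested, of which 3 rose and 2 fell, beside 32.7% and 31.3% of all tested genes. With ARHGEF10L able only to rise, these counts are not read against that background.

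**Figure D4:**
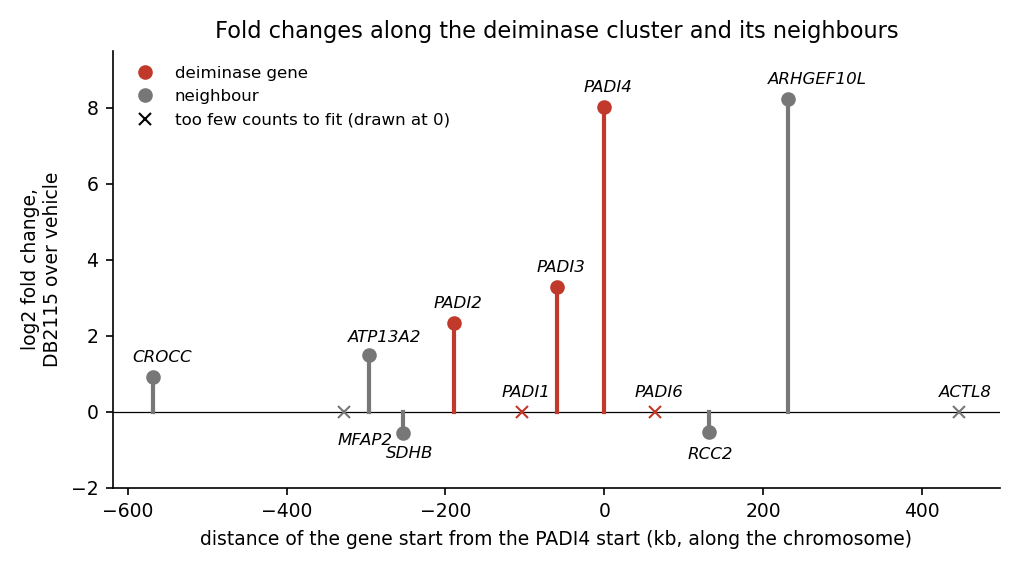
Log2 fold change, DB2115 over vehicle, of the deiminase genes (red) and 7 flanking genes (grey) against the distance of each gene's start from that of PADI4, in kb along the chromosome. Crosses are genes with too few counts to fit. PADI4 (8.03) and ARHGEF10L (8.24) stand well above RCC2 (-0.53), which lies between them with PADI6.

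The 5 genes with the values most like those of PADI4 were JUP, ACY3, COL7A1, MMP9 and LGALS3BP. Likeness was the Euclidean distance over the 4 libraries between log2(CPM + 0.1) values, so it joins level and difference, and the order of libraries within a group adds little to it. The nearest, JUP, which encodes plakoglobin of cell junctions, lay at a distance of 0.82, with 107 and 113 CPM with DB2115, against 0.399 and 0.751 CPM with vehicle. ACY3, an aminoacylase, lay at 1.21 with 144 and 138 CPM with DB2115, against 0.826 and 0.920 CPM with vehicle. The collagen gene COL7A1 followed at 1.62, the gelatinase gene MMP9 at 1.64 and LGALS3BP, a secreted glycoprotein, at 1.86. With 1 CPM added in place of 0.1, 4 of these 5 stayed among the nearest.

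Genes tied to the action of PADI4 in neutrophil extracellular traps mostly rose. Of 20 listed, 19 were tested, of which 13 rose and 6 fell (edgeR adjusted p under 0.05). Among those that rose, CYBB, with 7 and 11 counts with vehicle, passed the filter on low counts only through its DB2115 libraries. That is 68.4% higher and 31.6% lower, against 32.7% higher and 31.3% lower among all tested genes, so the share that fell was at the background, and the median log2 fold change was 0.70, against 0.03 over all tested genes. MPO, the peroxidase of azurophil granules, averaged 290 ± 11.9 CPM with DB2115 and 52.6 ± 2.08 CPM with vehicle (log2 fold change 2.46, edgeR adjusted p = 1.17e-11). The NADPH oxidase subunit gene NCF1 (4.93, uncertain because of its pseudogene copies) rose as well. ELANE, the elastase of the same granules, fell to 415 ± 39.0 CPM with DB2115, against 1230 ± 11.7 CPM with vehicle (log2 fold change -1.57, edgeR adjusted p = 1.38e-09), and so did the kinase genes CDK4 (-1.59) and CDK6 (-1.19).

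Partners, regulators and substrates of PADI4 held genes called in both directions, as did all tested genes. Of 14 partners and regulators tested, 8 rose and 4 fell (57.1% and 28.6%, against 32.7% and 31.3% of all tested genes), with a median log2 fold change of 0.38. Among those that rose, TAL1, with 4 and 2 counts with vehicle, passed the filter on low counts only through its DB2115 libraries. DNMT3A, a DNA methyltransferase reported as a PADI4 substrate, rose (log2 fold change 1.68), as did the phosphatase PTPN22 (1.07) and ING4 (1.10), whereas HDAC2 (-0.90), CARM1 (-0.82) and NPM1 (-0.79) fell. Of 19 citrullination substrates tested, 7 rose and 9 fell (36.8% and 47.4%, beside the same background), with a median of -0.16. GFAP, with 0 counts with vehicle, and CCL2, with 0 and 1, passed the filter only through their DB2115 libraries and could only rise. CXCL10, with 0 counts with DB2115, passed only through its vehicle libraries and could only fall. These shares are therefore not read against the background. VIM, the filament protein vimentin (0.89), FN1 (1.90) and CXCL8 (1.77) rose, and the enzyme gene ENO1 (-0.62), ACTB (-0.41) and NPM1 fell.

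Genes of arginine methylation, a modification of the residue that deiminases convert, were mostly lower. Of 11 genes listed, 10 were tested, of which 1 rose and 7 fell (10% and 70%, against 32.7% and 31.3% of all tested genes), with a median log2 fold change of -0.80. The list is not made of methyltransferases alone, and those that fell include WDR77, a cofactor of PRMT5 (-0.78), and JMJD6, a hydroxylase (-0.21). PRMT3 fell to 6.41 ± 1.10 CPM with DB2115, against 40.05 ± 0.98 CPM with vehicle (log2 fold change -2.64, edgeR adjusted p = 4.31e-10). PRMT1, the main asymmetric methyltransferase (-1.22), and PRMT5, the main symmetric one (-0.91), fell too, and PRMT2 rose (0.97).

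Of 13 epidermal and hair-follicle partners of PADI1 and PADI3, 8 were too low to test, among them filaggrin (FLG) and trichohyalin (TCHH). Of the 5 tested, 2 rose and 2 fell (40% and 40%, against 32.7% and 31.3% of all tested genes). S100A3, the calcium-binding protein that PADI3 modifies in hair, rose to 43.5 ± 4.84 CPM with DB2115, against 0.290 ± 0.033 CPM with vehicle (log2 fold change 7.22, edgeR adjusted p = 5.54e-12). The transglutaminase gene TGM3 rose by 7.23 on the log2 scale (edgeR adjusted p = 2.08e-10), or 7.86 without vehicle library B. With 2 and 5 counts with vehicle, TGM3 passed the filter on low counts only through its DB2115 libraries, so it could only rise. The shares of this list are therefore not read against those of all genes. BLMH, a protease that acts on citrullinated filaggrin (-0.72), and KRT10 (-0.55) fell, the KRT10 call being lost without vehicle library B (adjusted p = 0.0654).

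Deiminases need calcium, and of 13 genes of stored calcium 10 rose and 2 fell (76.9% and 15.4%, against 32.7% and 31.3% of all tested genes), with a median log2 fold change of 0.57. ORAI3 (2.06), STIM1 (1.31) and ATP2A3 (0.65) rose, and the pumps ATP2A2 (-0.41) and ATP2B1 (-0.28) fell. Of 8 tested genes that handle free arginine and citrulline, 3 rose and 1 fell, with a median of 0.11, and the 37.5% that rose is near the background. DDAH2 (2.29), NOS3 (2.0) and the transporter SLC7A2 (0.23) rose, and the arginine transporter SLC7A1 fell (-2.33). SLC7A2 was no longer called when vehicle library B was left out.

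**Figure D5:**
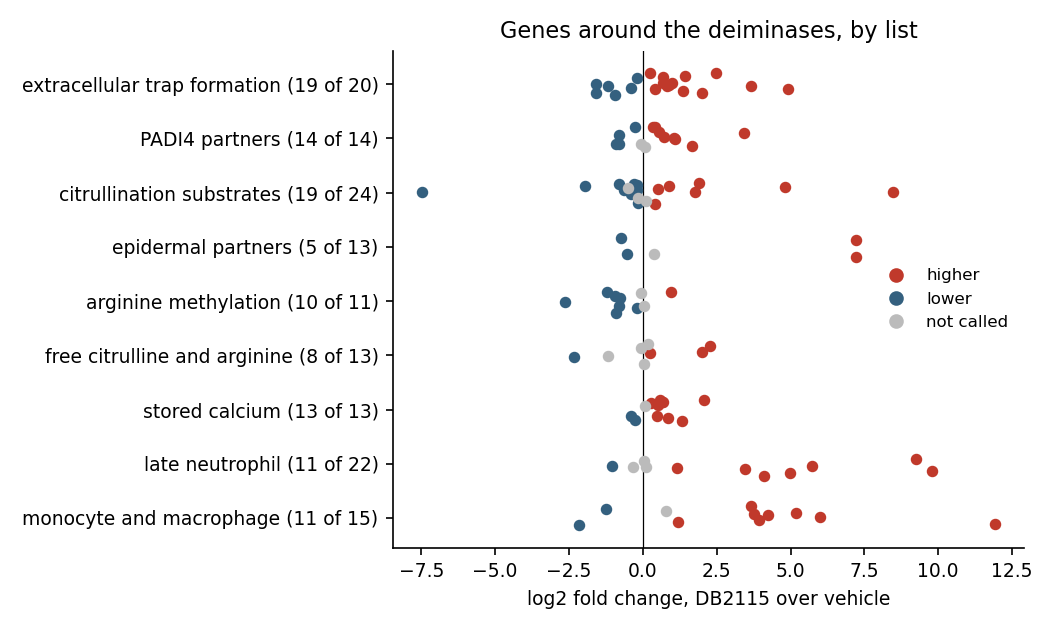
Log2 fold change, DB2115 over vehicle, of the tested genes of 9 lists, with the number tested of the number found in the table beside each list. Red points rose, blue points fell and grey points were not called. Points lie on both sides of 0 in each list, with 7 of 10 arginine methylation genes lower, and genes near 0 counts with vehicle could appear only on the right.

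PADI4 is known as a gene of mature neutrophils, and other late neutrophil genes stood at very different levels. Of 22 listed, 11 were too low to test, and 3 had no count in any library. FCGR3B had 6 and 19 counts with DB2115 and 0 with vehicle, CXCR1 had 1 and 2 counts with DB2115 and 0 with vehicle, and CEACAM8 had 0 counts in all 4 libraries. With DB2115, FPR1 had 76 and 80 counts, FPR2 had 104 and 123 and CYP4F3 had 123 and 120. With vehicle, FPR1 and FPR2 had 0 counts and CYP4F3 had 0 and 4, and each was called higher. The chemokine receptor gene CXCR2 had 3.98 and 4.15 CPM with DB2115, against 4.95 and 5.18 CPM with vehicle, and was not called (log2 fold change -0.32). Of the 11 tested, 7 rose and 1 fell, and rising was the only way into the test for a gene near 0 counts with vehicle, so these counts are not read against those of all genes. MMP25, a membrane metalloproteinase gene, had 176 and 168 CPM with DB2115, against 9.42 and 10.4 CPM with vehicle (4.11). CSF3R, the receptor gene for granulocyte colony-stimulating factor, had 107 and 115 CPM with DB2115, against 47.8 and 52.6 CPM with vehicle (1.15). ADGRG3 (4.98) rose too, and PROK2 fell (-1.04). The list summed to 356 and 352 CPM with DB2115, against 102 and 108 CPM with vehicle. Of 11 tested monocyte and macrophage genes of 15 listed, 8 rose, among them CSF1R (3.76), CD86 (6.01) and SIGLEC1 (0 counts with vehicle), and 2 fell, LYZ (-1.25) and MS4A7 (-2.17). The same limit on genes near 0 counts with vehicle holds for this list. That list summed to 239 and 233 CPM with DB2115, against 274 and 260 CPM with vehicle. Much of this sum was LYZ, at 88.2 CPM with DB2115 and 210 CPM with vehicle. The lower sum with DB2115 therefore does not describe the 8 genes that rose. The part of a changed mix of cell states in the PADI4 values was not tested.

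The 4 libraries held between 36547900 and 42446253 counts, so 3 counts in a library stand for 0.0725 to 0.0854 CPM after scaling. All 8 myeloid markers of the line had counts, and of those tested 5 rose and 2 fell (62.5% and 25%, against 32.7% and 31.3% of all tested genes). Among those that rose, ANPEP, with 12 and 5 counts with vehicle, passed the filter on low counts only through its DB2115 libraries. The integrin gene ITGAL (log2 fold change 0.62) and ANPEP, which encodes CD13 (4.32, or 3.69 to 5.18 without a vehicle library), rose beside MPO, while the receptor gene FLT3 (-1.63) and PTPRC, which encodes CD45 (-2.60), fell. The markers had sums of 1284 to 1356 CPM with DB2115 and 1314 to 1330 CPM with vehicle. Among 11 markers of other cell types, 4 were tested and 4 rose (100%, against 32.7% of all tested genes). Among these was the collagen gene COL1A1 (2.83, or 2.31 to 3.50 without a vehicle library). CD3E, with 1 and 0 counts with vehicle, passed the filter on low counts only through its DB2115 libraries, so it could only rise. The 11 markers had sums of 208 and 216 CPM with DB2115, against 83.1 and 75.0 CPM with vehicle. Most of these sums was PECAM1, which leukocytes also express, at 168 CPM with DB2115 and 72.6 CPM with vehicle, while MS4A1 and HBB stood at or near 0. The part of these markers in the deiminase values was not tested.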

How the data were processed

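The deposited table holds raw read counts, with no scaling by the authors, for 58381 Ensembl identifiers of MOLM-13 RNA, of which 58261 received a symbol. FastQC, STAR, DESeq2 and hg38 are named in the submitters' processing notes. Tool versions, the annotation, the counter and its strand setting: not given in the sources used here. Although 3 libraries per group are labelled, column V was exactly A plus B in 86.3% (DB2115) and 85.6% (vehicle) of genes with counts, so 2 libraries per group were used. Counts were scaled by TMM, filtered with filterByExpr (minimum count 10, minimum total 15) and fitted with edgeR 4.0.16 (quasi-likelihood, treatment as the only term, Benjamini-Hochberg adjustment) in R 4.3.3. The biological coefficient of variation was 6.33%. The fit was tried on simulated counts with 50 genes changed at each fold. It called 56% of 1.5-fold, 76% of 2-fold, 98% of 4-fold and 100% of 8-fold changes. Far fewer genes changed there than were called in these data, so the simulation does not vouch for the fit here. Coordinates and exon lengths came from GENCODE 29, and promoters from RefSeq (GRCh38.p14), which held 3 of the 4 members. Protein sequences were not used here.

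The members and gene lists were chosen with earlier results of these data known. Lists are given by counts and medians, with no set test. From each list, up to 3 rises and 3 falls with the smallest adjusted p and a mean of at least 1 CPM were named. FLG, TCHH, CXCR2, WDR77, JMJD6, FPR1, FPR2, CYP4F3, CD3E and the markers at or near 0 were chosen after their values were seen. So were CYBB, TAL1, GFAP, CCL2 and CXCL10. Some genes that the rule names are not reported here. Since separate cultures are not stated, p-values reflect library-to-library spread that could be technical. For several genes with few vehicle counts, among them ARHGEF10L, S100A3, TGM3 and CD86, the fitted standard error lay below counting error. The same held for PADI3 and PADI4. The p-values of such genes understate the noise. Counting intervals (exact, 95%) cover counting error only.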

Additional observations from a re-analysis of the deposited data

How the results depend on the processing

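The log2 fold changes of PADI2, PADI3 and PADI4 kept their direction and stayed within the spread between libraries under every alternative that could fit them. With each library left out in turn they ran from 2.14 to 2.50 for PADI2, from 3.04 to 3.48 for PADI3 and from 7.84 to 8.17 for PADI4, and the lone library of a group was then assumed to vary like the others. Requiring 1 CPM in 3 libraries removed PADI3 and PADI4 from the fit, and PADI1 was too low for a main value. The number of genes called, 11030, was 9892 with DESeq2, 8939 with 1 CPM in 3 libraries, 13838 with all 6 columns and 8838 to 10709 with a library left out. With a replicate block on the column letters it was 11424, and PADI4 had a log2 fold change of 8.02. These letters match no replicate number in the labels, and same-lettered libraries did not deviate together (correlation 0.02), so the block is no paired design. With 1 CPM in 3 libraries, calls numbered 10 among citrullination substrates (16 as reported), 2 among epidermal partners (4), 4 among late neutrophil (8), 5 among monocyte (10) and 2 among other-cell marker genes (4), since fewer genes were tested. All 6 columns gave 7 calls among free arginine and citrulline genes, against 4. The use of the longest coding transcript as length, chosen after seeing the data, gave PADI4 94.8% of the family with DB2115 and 27.5% with vehicle. At this depth PADI1 and PADI6 could not be compared with any precision.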

Other observations

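The other genes annotated inside the cluster were almost silent. LINC02783, a non-coding RNA gene between PADI2 and PADI1, had 1 and 1 counts with DB2115 and 0 with vehicle. MIR3972, within PADI3, had 0 and 3 counts with DB2115 and 0 with vehicle.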
